A study of Rattus norvegicus with 40 samples.

Results

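The triceps of the fore limb was compared between rats of 22 and 20 months, as 20 of the 40 libraries of the series. The members are the libraries that the labels assign to this muscle, 10 from animals of 20 months and 10 from other animals of 22 months, so the comparison was unpaired. All animals were male Wistar rats, an outbred stock, with no genotype or treatment in the labels. Each animal also gave a gastrocnemius library, taken from the calf, and those 20 libraries serve here only for comparison. RNA was sequenced after selection for poly(A) and counted per gene.

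Triceps extends the elbow and is built mostly of fast-twitch fibers, with slow-twitch fibers in some of its parts. Sarcopenia is the loss of muscle mass and function with age. Aged rats of this stock are known for a peripheral neuropathy that wastes the hind limbs, which makes a fore limb muscle a useful counterpart to gastrocnemius. The study placed 20 months in the early sarcopenic and 22 months in the sarcopenic phase of gastrocnemius, and the comparison asks what changed in triceps over the same interval.

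Genes are given by Ensembl identifier, because the table carries no gene names and 0 of its 32545 identifiers could be matched to a symbol. The muscle label could therefore not be checked against muscle markers, and no gene could be assigned a function. It was checked against the other muscle instead. Each library was placed on an axis over all genes that runs from 0, the mean of the triceps libraries of other animals, to 1, the mean of their gastrocnemius libraries. Triceps libraries lay between -0.252 and 0.508 and gastrocnemius libraries between 0.468 and 1.48. Replicate 7 of 20 months, at 0.508, lay above the lowest gastrocnemius library, and replicate 10 of 20 months followed among triceps libraries at 0.383. The highest triceps library of 22 months was replicate 10, at 0.274. Values without replicates 7 and 10 of 20 months are given beside the results that rest on them. Total counts ranged from 10983887 to 68580194, and each library detected between 16017 and 17800 genes. The deepest library, replicate 4 of 20 months, stood apart from the other 9 of its age, which reached at most 39910210.

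No gene passed the test between ages in triceps. Of 12345 genes, 0 (0.0%) had an adjusted p under 0.01 in edgeR's quasi-likelihood test with Benjamini-Hochberg adjustment, and the smallest adjusted p was 0.513. By DESeq2 and limma-voom 0 genes were called as well, with smallest adjusted p-values of 0.155 and 0.509. At an unadjusted p under 0.05, edgeR gave 1084 genes (8.78%), 463 higher (3.75%) and 621 lower (5.03%) at 22 months. DESeq2 gave 1149 genes, 461 higher and 688 lower, and limma-voom 1076, 531 higher and 545 lower. The split of directions thus differed between methods, and it also depended on how libraries were scaled. With library totals in place of TMM, 738 genes were higher and 273 lower. No gene had all animals of one age above all animals of the other. Nor was any gene at 0 in every library of one age while counted in 8 or more libraries of the other.

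The estimates were narrow enough to bound the changes of most genes. Changes are given as log2 fold changes, 22 minus 20 months, so that positive values are higher at 22 months. The median absolute change was 0.09 and the median standard error was 0.11. For 12003 genes (97.2%) the 95% interval of the change lay within -1 and 1, which leaves out a change of more than 2-fold in either direction gene by gene. For 9622 genes (77.9%) it lay within -0.5 and 0.5. These intervals carry no correction for the number of genes, and they do not show that such genes were the same at both ages.

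Changes of more than 1 were estimated for 40 genes, and 34 of them were lower at 22 months. The 34 genes had a mean of 2.28 to 563 CPM (counts per 1000000 counts of the library, with TMM scaling), with a median of 27.3 CPM, and changes of -1.02 to -2.40. The 6 genes that were higher had a median of 2.53 CPM. At the limit, the smallest change counted was 1.01 and the largest not counted was 0.9963. The set depended on the method. By limma-voom 24 genes changed by more than 1, 9 higher and 15 lower, and 9 of the 24 were among the 40. With replicate numbers as a block there were 22, 5 higher and 17 lower, of which 13 were among the 40. None of the 40 passed the test, the smallest adjusted p by edgeR being 0.513, and the ages overlapped in all 40.

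**Figure D1:**
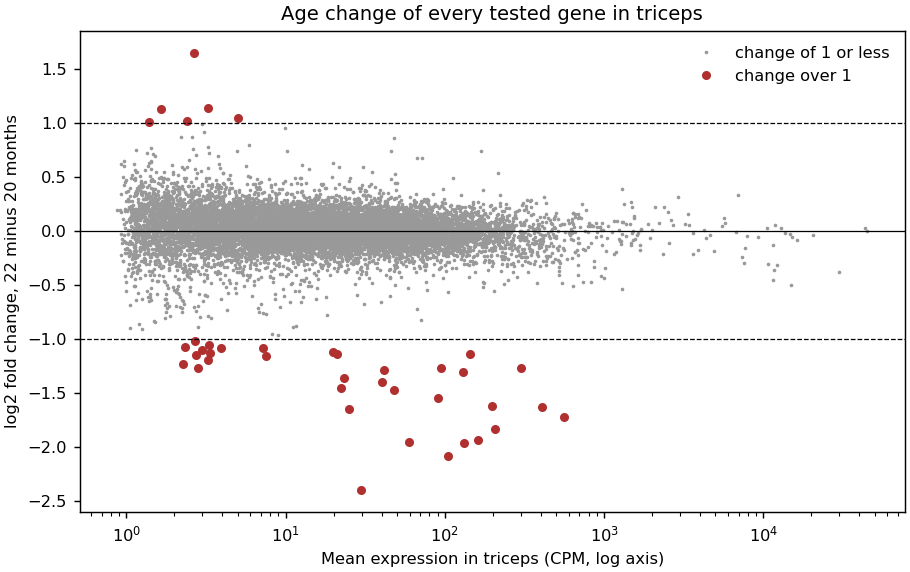
Log2 fold change of each of the 12345 genes tested in triceps, 22 minus 20 months, against its mean expression in CPM on a log axis. The 40 genes beyond the dashed lines at -1 and 1 are in red, 34 of them below, and none passed the test.

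The 34 genes followed 2 triceps libraries. In 33 of the 34, replicates 7 and 10 were the 2 highest libraries of 20 months. Replicate 7 was the highest in 22 genes and replicate 10 in the other 12. Since these genes were chosen for a high mean at 20 months, libraries that carry that mean are expected among them, and the counts are a description. The median log2 CPM over the 34 genes was 7.64 in replicate 7 and 6.97 in replicate 10. The other 8 libraries of 20 months ran from 1.61 to 5.05, and the 10 libraries of 22 months from 0.74 to 5.53. Thus the bulk of both ages lay in the same range, and the triceps libraries of replicates 7 and 10 of 20 months stood above it.

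Animals within 22 months also differed in these genes. The highest libraries of that age were replicate 10 at 5.53, replicate 7 at 4.72 and replicate 4 at 4.02. These were also, in the same order, the 3 libraries of 22 months nearest to gastrocnemius on the muscle axis, at 0.274, 0.190 and 0.119. The axis takes in the 34 genes, so a library high in them is moved toward gastrocnemius. The shared order is therefore a description and not separate evidence. In gastrocnemius, which played no part in the choice of the genes, the median log2 CPM over the 34 genes ran from 3.96 to 7.42 at 20 months and from 4.42 to 6.73 at 22 months. Replicate 7 of 20 months in triceps thus lay above every gastrocnemius library, and replicate 10 within their range. The choice of the genes favours replicates 7 and 10 of triceps here, because they carry much of the mean at 20 months. In gastrocnemius of the same animals, replicate 7 of 20 months was at 7.42 and replicate 10 at 4.135. At 22 months, 30 of the 34 genes (88.2%) had a higher mean in gastrocnemius than in triceps, against 48.6% of all genes tested. The median difference was 2.05 on the log2 scale, against -0.01 over all genes. This last comparison favours gastrocnemius, because the genes were chosen as low in triceps at 22 months. In a bulk sample, fewer cells of a kind and less RNA per cell cannot be told apart, and the part played by the region of the muscle that was sampled was not tested.

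**Figure D2:**
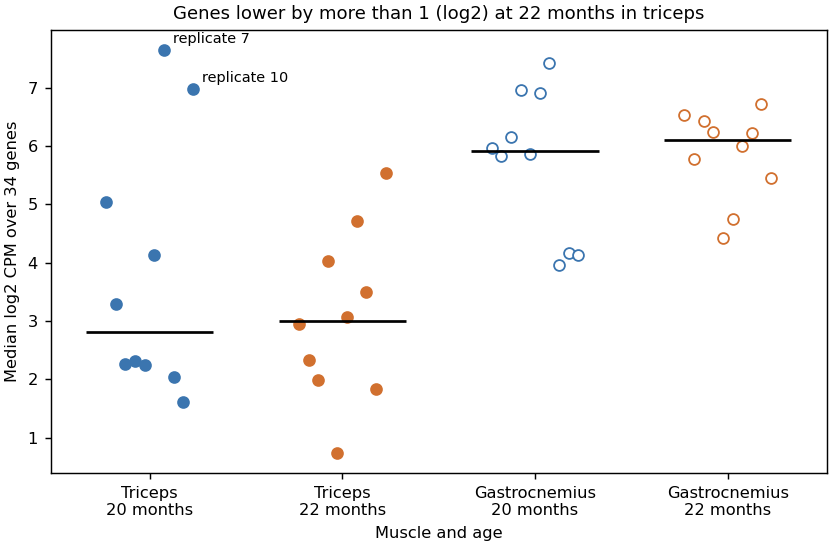
Median log2 CPM, in each library, of the 34 genes estimated lower by more than 1 at 22 months in triceps, by muscle and age (filled triceps, open gastrocnemius, bars at the median of 10 libraries). Replicates 7 and 10 of 20 months, at 7.64 and 6.97, sit above the other 18 triceps libraries and among or above the gastrocnemius libraries. The genes were chosen for a high mean at 20 months in triceps, which favours these replicates.

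Leaving libraries out showed how far the large changes rested on the triceps libraries of replicates 7 and 10 of 20 months. Without replicate 7 of 20 months, 21 genes changed by more than 1, 10 higher and 11 lower. Without replicate 10 there were 25, 5 higher and 20 lower. Without both there were 17 genes, all higher at 22 months, and 2 of them were among the original 40. The 34 genes then had a median change of 0.15, and 12 of them were still lower at 22 months. Without replicate 7 alone, 33 of the 34 were still lower, with a median change of -0.71. Without replicate 10 alone, all 34 were still lower, with a median change of -1.04. Since the 34 genes were chosen for a high mean at 20 months, leaving out its highest libraries favours this loss of lower genes. These counts are a description of where the estimates came from. Leaving out any other single library gave between 35 and 47 genes, most of them lower in each case. The test itself called 0 genes by edgeR without both libraries, with a smallest adjusted p of 0.489 and 1222 genes at an unadjusted p under 0.05, of which 613 were higher and 609 lower.

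**Figure D3:**
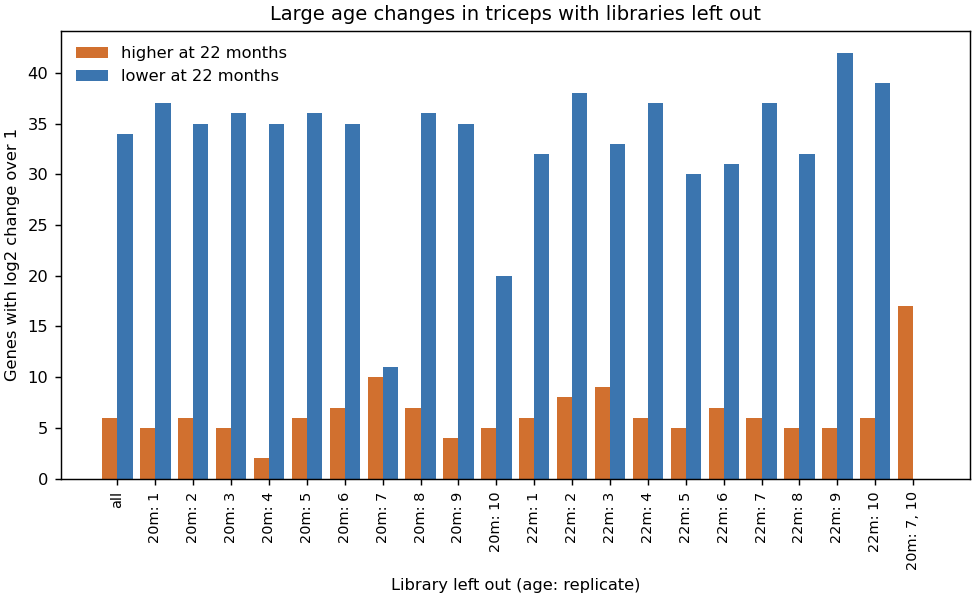
Number of genes with an estimated log2 change of more than 1 between ages in triceps, higher (orange) and lower (blue) at 22 months, with all libraries and with each library left out. The lower genes beyond this limit number 34 with all libraries, 11 without replicate 7, 20 without replicate 10 and 0 without both replicates of 20 months. Each set was taken anew.

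The widest differences between animals were found in the same genes. Where mean expression reached 20 CPM, the 10 genes with the largest SD of log2 CPM over the 20 libraries had SDs of 2.16 to 3.93, where the median over all genes tested was 0.255. Of these 10, 8 belonged to the 34 genes above, and 8 were highest in replicate 7 or 10 of 20 months. Both lists were drawn from the same 20 libraries. A large change that does not pass the test goes with a wide spread, so the overlap follows in part from the choice. The widest of all was ENSRNOG00000016983, named after its values were seen. In triceps at 20 months it ran from 0.794 to 3870 CPM with a median of 27.9 CPM, and at 22 months from 1.19 to 1630 CPM with a median of 56.5 CPM. Replicates 7 and 10 of 20 months were at 3870 and 3410 CPM, replicate 10 of 22 months was at 1630 CPM, and the 6 lowest triceps libraries were between 0.794 and 5.67 CPM. In gastrocnemius the same gene ran from 328 to 6660 CPM at 20 months and from 523 to 4960 CPM at 22 months, so that 14 triceps libraries lay below all 20 gastrocnemius libraries. Its age change in triceps was -1.72 ± 1.34 (SE), smaller than the spread between animals (edgeR, adjusted p = 0.746). The means and medians of the ages point in opposite directions for this gene.

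Among genes of at least 5 CPM, those with the smallest unadjusted p in each direction were others, and their differences were small. By the rule for named genes, the 2 higher and the 2 lower genes with the smallest unadjusted p among those of at least 5 CPM were taken. ENSRNOG00000006689 ran from 21.6 to 33.1 CPM at 20 months, with a median of 27.8 CPM, and from 27.1 to 42.6 CPM at 22 months, with a median of 37.1 CPM. The ages overlapped, but 8 of 10 animals of 22 months lay above the highest of 20 months. Mean expression went from 27.8 ± 3.39 to 36.0 ± 4.90 CPM (SD, n = 10 each). The log2 fold change of 0.37 ± 0.085 (SE) had an unadjusted p of 0.000238 and did not pass adjustment over all genes (edgeR, adjusted p = 0.513).

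ENSRNOG00000016965 ran from 28.7 to 40.1 CPM at 20 months, with a median of 35.8 CPM, and from 30.5 to 59.7 CPM at 22 months, with a median of 45.7 CPM. All animals of 22 months but replicate 3, at 30.5 CPM, lay above the highest animal of 20 months. Its change came to 0.35 ± 0.086 (SE) on the log2 scale (edgeR, adjusted p = 0.513). Without replicate 3 of 22 months it was 0.40 ± 0.070 (SE), at an adjusted p of 0.126 by edgeR, still above the limit.

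ENSRNOG00000047118 ran from 43.4 to 71.1 CPM at 20 months, with a median of 49.4 CPM, and from 34.5 to 44.0 CPM at 22 months, with a median of 40.0 CPM. In this gene 9 of 10 animals of 20 months lay above the highest of 22 months. Here the log2 change was -0.36 ± 0.078 (SE; edgeR, adjusted p = 0.513). The highest value belonged to replicate 4 of 20 months, the deepest library, and without it the change was -0.29 ± 0.060 (SE).

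ENSRNOG00000015195, the fourth gene, was the lowest expressed of this group. It ran from 4.46 to 8.99 CPM at 20 months, with a median of 6.69 CPM, and from 4.21 to 5.74 CPM at 22 months, with a median of 4.62 CPM. In this gene 10 of 10 animals of 22 months lay below the median of 20 months, and 8 animals of 20 months lay above the highest of 22 months. Its log2 change of -0.46 ± 0.111 (SE) did not pass the test (edgeR, adjusted p = 0.513). The 4 genes were picked for their small p-values, so their estimates are likely to be too large. Their SDs of log2 CPM over the 20 libraries were 0.240 to 0.317, near the median of 0.255 over all genes tested, and their estimated changes were 1.27-fold to 1.37-fold. Without replicates 7 and 10 of 20 months their changes were 0.37, 0.36, -0.38 and -0.36 in the order given.

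**Figure D4:**
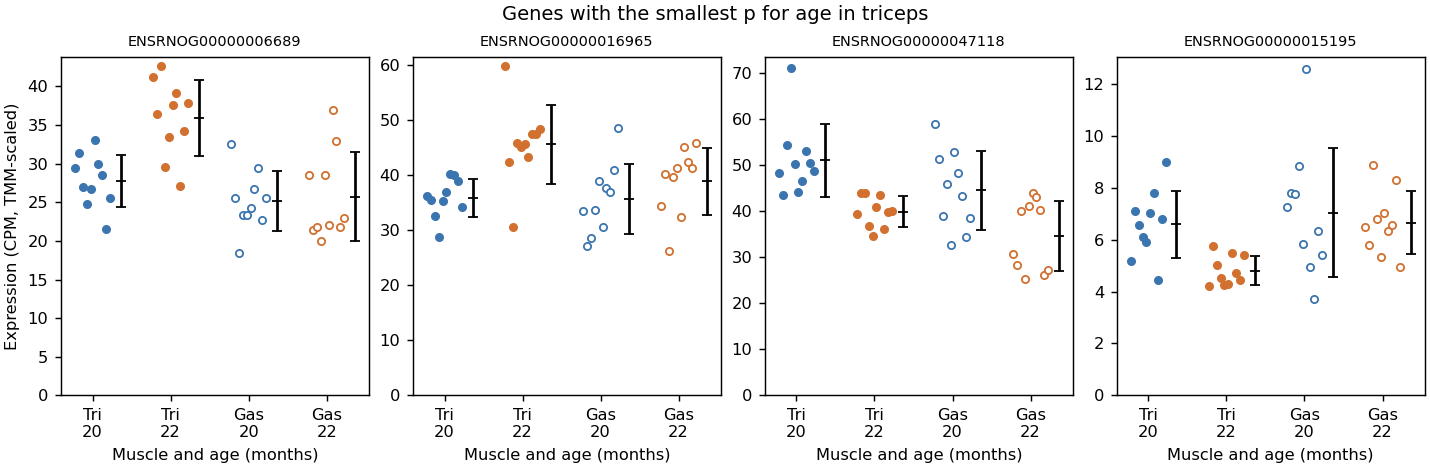
Expression of the 4 named genes in CPM in each library, by muscle (Tri, triceps, filled; Gas, gastrocnemius, open) and age in months, with the mean and SD of 10 libraries beside each group. In triceps the first pair of genes is higher and the second pair lower at 22 months, with overlapping ages and an adjusted p of 0.513 for each.

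The same genes were then read in gastrocnemius of the same animals. There the test between ages called 0 of 12659 genes, and 10.3% had an unadjusted p under 0.05, 4.91% higher and 5.42% lower at 22 months. The change of ENSRNOG00000047118 was similar there, at -0.36 ± 0.128 (SE), from a mean of 44.5 ± 8.52 CPM to 34.6 ± 7.67 CPM (SD, n = 10 each), and did not pass the test (edgeR, adjusted p = 0.416). The others were closer to 0 in gastrocnemius, at 0.03 ± 0.115 (SE) for ENSRNOG00000006689, 0.13 ± 0.106 (SE) for ENSRNOG00000016965 and -0.08 ± 0.169 (SE) for ENSRNOG00000015195. The test of the difference between muscles, which did not pair the muscles of an animal, did not separate them. For ENSRNOG00000006689 the age change was larger in triceps by 0.35 ± 0.148 (SE), but the adjusted p of that difference was 0.999 by edgeR (unadjusted 0.0239). The named genes were picked for small p-values in triceps, so the choice favours changes closer to 0 in gastrocnemius and a difference between muscles. Over 12980 genes, 0 genes (0.0%) were called for a difference between the age effects by edgeR. At an unadjusted p under 0.05 there were 389 (3.0%), 151 (1.16%) with the more positive change in triceps and 238 (1.83%) with the more negative. With the animal as a block it called 0 genes and had 585 at an unadjusted p under 0.05, 284 and 301 in each direction. DESeq2 and limma-voom called 0, with 429 and 403 genes at an unadjusted p under 0.05.

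Expression level mattered for the counts at an unadjusted p under 0.05. Among 1140 genes of 100 to 1000 CPM, 24 (2.11%) were higher and 131 (11.5%) lower at 22 months, against 3.75% and 5.03% of all genes tested. Among 88 genes of 1000 CPM or more, which held 49.6% of the expression of tested genes, 2 (2.27%) were higher and 9 (10.2%) lower. Genes under 5 CPM had 98 of 2823 (3.47%) higher and 64 (2.27%) lower, a split that single libraries moved. It was 76 and 77 without replicate 9 of 20 months, 79 and 74 without replicate 5, 166 and 39 without replicate 7, and 167 and 31 without replicates 7 and 10. Between 5 and 20 CPM, 143 and 141 of 4046 genes were higher and lower. Between 20 and 100 CPM, 196 (4.61%) and 276 (6.5%) of 4248 genes were higher and lower. With library totals these were 319 and 107. Among genes of 100 to 1000 CPM, 29 were higher and 130 lower without replicates 7 and 10 of 20 months. Leaving out replicate 7 alone gave 33 higher and 163 lower, and replicate 10 alone 19 and 88. Without the deepest library, replicate 4 of 20 months, there were 18 and 80. This lean depended on the scaling, because with library totals 67 were higher and 76 lower. The median change of the 1140 genes was -0.03 with TMM and 0.03 with library totals. Genes are not independent of each other, and none of these genes was called.

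Whether the animals of the 2 ages separated as a whole was examined by principal component analysis of triceps and by distances between libraries. Age accounted for 5.93% of the variance of log2 CPM (permutation test, p = 0.259, adjusted 0.69 over 8 library measures). PC1 held 22.9% of the variance, and its highest scores were those of replicates 7 and 10 of 20 months, at 54.2 and 31.6, followed by replicate 10 of 22 months at 22.9. PC2 held 10.8% and was the component on which the ages differed most, with mean scores of -6.67 ± 11.3 in the younger and 6.67 ± 12.2 in the older animals (SD, n = 10 each). This difference did not pass adjustment over the 8 measures (two-sided permutation test, p = 0.0229, adjusted 0.184), and animals of both ages mixed along it. PC3, PC4 and PC5 had adjusted p-values of 0.84, 0.689 and 0.852 in the same permutation tests.

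**Figure D5:**
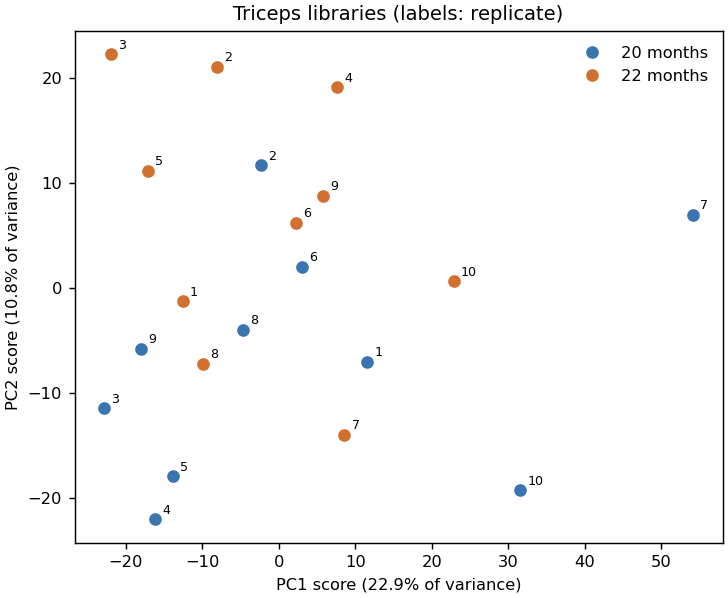
Scores of the 20 triceps libraries on the first 2 principal components, with replicate numbers as labels and ages by colour. Replicates 7 and 10 of 20 months lie far out on PC1, at 54.2 and 31.6, and the ages overlap on both components.

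The spread among animals was compared as well. The root mean square log2 distance of a library to the mean of the other animals of its age, over all tested genes, averaged 0.393 ± 0.0794 in the younger and 0.365 ± 0.0519 in the older group (SD, n = 10 each). The difference did not pass the permutation test (p = 0.39, adjusted 0.779). Gene by gene, the SD of log2 CPM was larger at 20 months in 7141 of 12345 genes (57.8%). That lean rested on replicate 7 of 20 months, since without it the share was 49.8%, and without replicates 7 and 10 it was 46.4%. It was 64.0% without replicate 3 of 22 months, the library with the most genes at the top of its age group. Over 9522 genes of at least 5 CPM, that library was the highest of 22 months in 21.7%, while replicate 7 was the highest of 20 months in 19.1% and the lowest in 23.7%. An even share would be 10% for each library. Position on the axis from triceps to gastrocnemius averaged 0.034 ± 0.236 and 0.017 ± 0.150 (SD, n = 10 each), a difference smaller than the spread between animals (permutation test, p = 0.852, adjusted 0.852). Without replicates 7 and 10 of 20 months the younger group averaged -0.069 ± 0.10 (SD, n = 8; permutation test, p = 0.179, adjusted 0.477).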

How the data were processed

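Total poly(A) RNA of 40 muscle samples had been sequenced after library preparation with a TruSeq kit, by an unstranded protocol per the study's methods. The authors deposited 1 table of raw read counts per Ensembl gene from HTSeq, with no normalization. The submitters' processing notes name STAR 2.3.0e, CASAVA 1.8, HTSeq and the build Rnor_6.0. Neither the annotation release nor the counting options behind this table are given in those sources, and reads shared by similar or overlapping genes cannot be told apart. The study's own expression values came from kallisto.

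For the 20 triceps libraries, edgeR 4.0.16 (R 4.3.3) was applied to the counts. Genes with at least 1 CPM in 10 libraries were kept, TMM scaling was applied, and the two-sided quasi-likelihood test was run on age with Benjamini-Hochberg adjustment and a limit of 0.01. Standard errors and 95% intervals came from the F statistic. The age effects of both muscles were compared on all 40 libraries, without the animal as a block, and a fit with that block was an alternative. DESeq2 1.42.0 and limma 3.58.1 were alternatives. Log2 CPM used a prior count of 2. Library measures were compared by permutation tests of 100000 resamples (10000 for alternatives), two-sided except the share of variance, with adjustment over 8 tests. The test was tried on simulated data.

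The members, gene rule and tests were chosen with earlier results of these data known, and the library measures, abundance classes and the limit of 1 after the data were examined. The gene lists and cell type markers of the plan needed symbols and were not analysed here, since 0 of 47357 genes of the RefSeq table carried an Ensembl identifier. By the plan's rule for that case, 2 genes in each direction with the smallest p and a mean of at least 5 CPM were named. All 90 pairs of libraries within an age differed by more than sampling noise, with a chi-square of at least 13.8 per gene. Both muscles of an animal share its number in the labels. Their deviations from group means had a median correlation of 0.158, and 12 of 20 pairs were over 0.1. Same-numbered triceps libraries, which come from different animals, had a median of 0.155, with 6 of 10 pairs over 0.1. The first value is across muscles and the second within triceps, so they are not like for like. They do not show whether the correlation can tell libraries of the same animal from those of different animals.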

Additional observations from a re-analysis of the deposited data

Results flagged for a closer look

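Among 30 sets of 10 libraries (each measure at each age), 5 had a highest or lowest value that stood off from the other 9 by 0.478 to 0.605 of the range of the set, beyond Dixon's 95% critical value. By chance about 5% of sets would, and the sets share libraries. The total count of triceps replicate 4 of 20 months was 68580194, against 10983887 to 39910210 in the others. The same library held the highest value of ENSRNOG00000047118, at 71.1 CPM against 43.4 to 54.3 CPM. Triceps replicate 7 of 20 months had a root mean square log2 distance of 0.528 to the other animals of its age over genes of at least 5 CPM, where the others had 0.263 to 0.393. It was also the lowest of its age in 23.7% of those genes, against 3.31% to 14.0% for the others. Triceps replicate 3 of 22 months was the highest of its age in 21.7% of those genes, against 3.15% to 12.3%. The labels give no sequencing date, tissue region or RNA quality for any of these libraries.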

How the results depend on the processing

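Under 28 alternatives for age in triceps, 0 genes were called, and 0 genes had an adjusted p under 0.05. The 4 named genes kept their direction in all 112 values, with adjusted p-values of 0.126 to 0.785. Library totals gave 738 genes higher and 273 lower at an unadjusted p under 0.05, and 67 and 76 among genes of 100 to 1000 CPM. Testing every gene with a count gave 1896 genes, 879 higher and 1017 lower, among 21182 genes tested. Leaving out each triceps library gave 774 to 1402 genes at an unadjusted p under 0.05, 322 to 665 higher and 442 to 860 lower. Genes changed by more than 1 numbered 24 by limma-voom, 22 with the replicate block, 17 without replicates 7 and 10 of 20 months, and 21 to 47 with 1 library left out. Other than for libraries left out and genes added, the cause was not tested.

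Replicate numbers name different animals at the 2 ages and do not pair them. Same-numbered triceps libraries had a median correlation of deviations of 0.155, 6 of 10 pairs were over 0.1, and 3 of 10 libraries of 20 months correlated best with their own number. The replicate block gave 1319 genes at an unadjusted p under 0.05, 671 higher and 648 lower, and called 0. For the difference between muscles, the animal block gave 585 genes, 284 with the more positive change in triceps. The alternatives planned for gene lists were not run, since no symbols could be matched. The median standard error was 0.19 under 5 CPM, 0.09 at 20 to 100 CPM and 0.13 at 1000 CPM or more, and the part of depth in it was not tested. No adjusted p of the library measures fell under 0.05 in any of their 3 alternatives.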

Other observations

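The spread between animals was read by expression level. Among 88 genes of 1000 CPM or more, the median coefficient of variation in triceps was 21.5% at 20 months and 15.8% at 22 months, and without replicates 7 and 10 of 20 months it was 15.9% at 20 months. Among 1140 genes of 100 to 1000 CPM it was 15.8% and 12.2%, and 13.6% at 20 months without them. Under 5 CPM it was 28.8% and 28.2%. These are medians over genes within 10 or 8 libraries, and the differences were not tested.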
